A study of Mus musculus with 3 samples.

Results

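The miR-30 family was followed in small RNA libraries of mouse hearts from the first postnatal day to the fourth week. With earlier results of these data known, members were taken by miRBase accession, with no cut on their counts. They comprised 7 of the 1900 mature accessions in the table. The guide-side (5p) products were miR-30a-5p (MIMAT0000128), miR-30b-5p (MIMAT0000130), miR-30c-5p (MIMAT0000514), miR-30d-5p (MIMAT0000515) and miR-30e-5p (MIMAT0000248). The 3p products were miR-30a-3p (MIMAT0000129) and miR-30e-3p (MIMAT0000249). The 3p arms of the other precursors were not analysed here. The 7 accessions occupied 8 rows, because miR-30c-5p, which is encoded at 2 loci, has 2 rows.

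Hearts came from wild-type C57BL/6 mice at postnatal day 1 (P1), day 7 (P7) or day 28 (P28). There was 1 library for each age, and the 3 groups shared strain and genotype and differed in age alone as far as the labels state. The labels name the tissue as heart, whereas the study's text speaks of ventricles, and whether RNA from several animals was pooled is not given in the sources used here. No difference below therefore has a replicate check, and every interval covers counting error only. The P1 library totalled 1944237 counts, the P7 library 2465680 and the P28 library 2842526. Below, 3 values given in a row refer to P1, P7 and P28 in that order. Levels are given as CPM, meaning counts scaled to a library total of 1000000, and a level is accordingly a share of the library. The table names no accession, and those of heart, blood or other tissue markers were not identified, so the tissue label was not checked against markers. In whole hearts, fewer cells of a type and less miRNA per cell cannot be told apart.

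MicroRNAs are loaded into Argonaute proteins and pair with messenger RNAs mainly through bases 2 to 8 of the miRNA, the seed, which lowers the output of the target. A precursor hairpin yields a product from each arm, and usually the product of a preferred arm is retained while the other is degraded. The miR-30 family is highly conserved and abundant in heart muscle, where it is known, together with miR-133, for repressing connective tissue growth factor, a driver of matrix deposition. Members with a common seed are expected to share many targets, so the summed level of the 5p products is given beside that of each member.

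The mature sequences below are shown because the members are told apart by few bases. Sequences were found for 5 of the 7 members in RefSeq (GRCm38.p6, the assembly also known as mm10), and capitals mark the seed.

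miR-30a-5p: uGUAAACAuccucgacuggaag
miR-30e-5p: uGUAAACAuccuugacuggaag
miR-30c-5p: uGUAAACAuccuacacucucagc
miR-30a-3p: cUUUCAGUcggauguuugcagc
miR-30e-3p: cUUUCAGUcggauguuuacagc

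The 3 printed 5p members had the seed GUAAACA in common, and the 2 printed 3p members had UUUCAGU. Among the 1679 mature names in the RefSeq table, GUAAACA was the seed of 4, the other being miR-384-5p. No sequence was found there for miR-30b-5p or miR-30d-5p, so the count leaves them out and their seed was not checked. The seed UUUCAGU belonged to 2 names, both of them members. Counting positions from 1 at the 5′ end, miR-30a-5p and miR-30e-5p differed by C13U alone, and miR-30a-3p and miR-30e-3p by G18A alone. The 5p product of miR-30c shared its first 12 bases with miR-30a-5p and was 23 bases long, against 22 for the others. Reads of miR-30a and miR-30e are thus assigned by a single base, and how mismatches and reads with several matching places were treated is not stated.

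Hairpins were located for the members with a printed sequence, and these hairpins lie in pairs. Those of miR-30b-5p and miR-30d-5p were not located. Mir30a and Mir30c-2 are on the plus strand of chromosome 1 with 19361 bases between them, and the mature 5p products are at chr1:23272274-23272295 and chr1:23291714-23291736. No other gene overlapped the Mir30a hairpin in GENCODE M21, while that of Mir30c-2 fell in an exon of the noncoding gene Gm27028. Mir30c-1 and Mir30e are on the minus strand of chromosome 4, 2983 bases apart. Both are within an intron of Nfyc, which encodes a subunit of the transcription factor NF-Y. Their 5p products are at chr4:120769584-120769606 and chr4:120772660-120772681. The 5p sequence of miR-30c is identical at its 2 loci, so a read confined to that sequence matches both.

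The 3p arm of miR-30e has an annotated neighbour on the opposite strand. RefSeq places miR-30f on the plus strand at chr4:120772621-120772642, and miR-30e-3p is on the minus strand at chr4:120772618-120772639. The overlap is 19 bases, and 19 of these positions are complementary, as follows from their lying on opposite strands. The sequence of miR-30f is given to show that it resembles the family at its start, with the bases GUAAACA moved forward by a position, and capitals mark its own bases 2 to 8.

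miR-30f: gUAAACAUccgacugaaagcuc

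In the count table, MIMAT0025179 held 611, 746 and 760 reads, whereas miR-30e-3p held 608, 741 and 758. The 2 accessions thus differed by 3, 5 and 2 reads. The accession, which the table gives no name, was picked out after its counts were seen. Whether strand was used in counting is not stated, and a link between these counts and the overlap was not tested. Among the 7 members, miR-30e-3p was the 1 whose counts matched another accession within 1% in every library.

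Together the 5p members made up 8.53% of the P1 library (95% Wilson interval 8.49 to 8.57). In the P7 library they made up 9.65% (9.61 to 9.68), and in the P28 library 8.60% (8.57 to 8.63). The summed level was therefore highest at P7, and P1 and P28 were nearly alike. The log2 ratio of the sum was 0.18 at P7 against P1 (95% Clopper-Pearson interval 0.17 to 0.19), 0.01 at P28 against P1 (0.003 to 0.02) and -0.17 at P28 against P7 (-0.17 to -0.16). These differences exceed counting error but are small, the largest of the 3 being 1.13-fold. The most abundant accession of all took 42.6% to 45.3% of each library. Of the remaining counts, miR-30 5p products made up 15.0%, 16.8% and 15.7%. The age with the highest sum depended on the scaling. TMM and DESeq2 size factors, which scale libraries by the typical accession, put it at P28, as did a total without the 10 most abundant accessions. The log2 ratio of the sum at P28 against P7 was then 0.48, 0.56 and 0.18 in turn. By their places, 4 to 9 in every library, miR-30a-5p, miR-30d-5p and miR-30e-5p are probably among the 10 accessions left out. That total is then not independent of the sum. Levels below are by library totals unless another scaling is named.

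The family was carried by 3 members. In the P1, P7 and P28 libraries, miR-30d-5p was at 30074 CPM (58471 reads), 37729 CPM (93028 reads) and 24249 CPM (68928 reads). It was highest at P7 and lowest at P28, and its place among the mature accessions went from 4 to 5 to 7. miR-30a-5p was at 25957 CPM (50467 reads), 32906 CPM (81135 reads) and 29161 CPM (82892 reads). It too was highest at P7, but it was lowest at P1, and it held places 5, 6 and 4. miR-30e-5p was at 23118 CPM (44947 reads), 19352 CPM (47716 reads) and 25886 CPM (73581 reads). By library totals it was the only member of the 7 with its lowest level at P7, whereas under TMM miR-30e-3p was lowest there too, and it held places 7, 9 and 6. These 3 together provided 92.8%, 93.3% and 92.2% of the 5p reads.

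The other 5p members were less abundant. miR-30c-5p was at 5747 CPM (11174 reads), 5987 CPM (14762 reads) and 6181 CPM (17571 reads), with places 22, 19 and 16. Its levels increased with age by no more than 1.08-fold from lowest to highest. These levels sum 2 rows, described below, that went in opposite directions between successive ages. miR-30b-5p was at 378 CPM (734 reads), 488 CPM (1204 reads) and 509 CPM (1448 reads), with places 87, 76 and 63. Its interval at P1 (351 to 406 CPM) did not overlap those at P7 (461 to 517) and P28 (484 to 536), which overlapped each other. The 5p products thus spanned a wide range of abundance, and miR-30b-5p had 0.0126 reads per read of miR-30d-5p at P1 and 0.0210 at P28.

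The 3p products were present at low levels. miR-30e-3p was at 313 CPM (608 reads), 301 CPM (741 reads) and 267 CPM (758 reads). The intervals of P1 (289 to 339 CPM) and P28 (248 to 286) did not overlap, and that of P7 (280 to 323) overlapped both. miR-30a-3p was at 190 CPM (369 reads), 200 CPM (493 reads) and 188 CPM (534 reads). Its 3 intervals all overlapped, extending from 171 to 218 CPM, so no difference with age was detectable at this depth. Over the 2 hairpins with both arms among the members, the 3p products made up 1.01% (0.952 to 1.08), 0.949% (0.897 to 1.00) and 0.819% (0.776 to 0.865) of the reads.

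**Figure D1:**
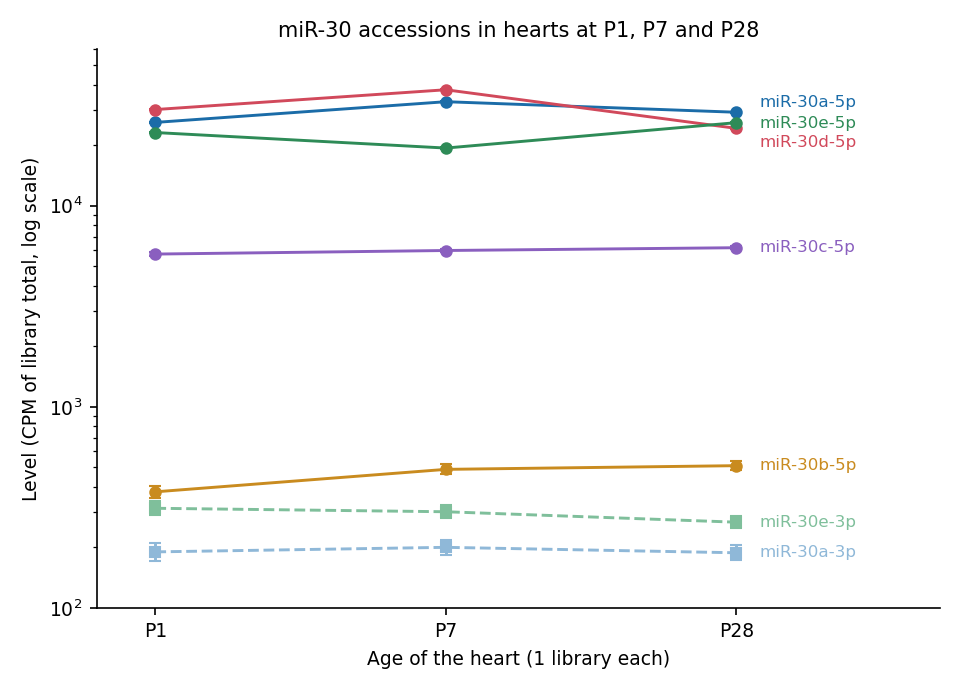
Level of each miR-30 accession in CPM of the library total (log axis) against the age of the heart, with 1 library per age; points joined by solid lines are 5p products, squares joined by dashed lines are 3p products, and bars are 95% Wilson intervals, mostly smaller than the points. miR-30d-5p, miR-30a-5p and miR-30e-5p lie between 19352 and 37729 CPM, and the 3p products lie between 188 and 313 CPM.

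Within each library the order of the members was the same except at the top. At P1 and P7 it was miR-30d-5p, miR-30a-5p, miR-30e-5p, miR-30c-5p, miR-30b-5p, miR-30e-3p and miR-30a-3p. At P28 miR-30a-5p came first and miR-30e-5p second, with miR-30d-5p behind them. Neighbours in this order had intervals that did not overlap in any of the 3 libraries. Replicate spread, which is not known here, could exceed the gaps among the first 3.

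The next question was which members differed between ages by at least 2-fold. No member did so in any of the 3 comparisons. For each comparison, the 279 mature accessions whose mean reached 10 CPM served as background, and all 7 members were among them. Ratios were computed with a pseudocount of 0.5 reads.

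At P7 against P1, 0 of 7 members were past 2-fold, beside 11.1% of the 279 accessions that were at least 2-fold higher and 11.5% at least 2-fold lower. The log2 ratio was 0.37 for miR-30b-5p (0.24 to 0.51), 0.34 for miR-30a-5p (0.33 to 0.36) and 0.33 for miR-30d-5p (0.31 to 0.34). These 3 were of like size, although miR-30b-5p differs from the other 2 in abundance by far. The ratio was -0.26 for miR-30e-5p (-0.28 to -0.24), the only interval wholly below 0. It was 0.06 for miR-30c-5p (0.02 to 0.09). Intervals of the 3p products included 0, with -0.06 for miR-30e-3p (-0.21 to 0.10) and 0.07 for miR-30a-3p (-0.12 to 0.27). The median log2 ratio was 0.07 over the members and 0.03 over all accessions.

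At P28 against P1, 0 of 7 members were past 2-fold, beside 13.6% of accessions higher and 42.7% lower. The largest ratio was again that of miR-30b-5p, at 0.43 (0.30 to 0.56). miR-30a-5p, at 0.17 (0.15 to 0.18), and miR-30e-5p, at 0.16 (0.15 to 0.18), had nearly the same ratio. That of miR-30c-5p was 0.11 (0.07 to 0.14). miR-30d-5p was lower at P28, at -0.31 (-0.33 to -0.29), as was miR-30e-3p, at -0.23 (-0.39 to -0.07). The interval of miR-30a-3p included 0, with -0.02 (-0.21 to 0.18). The median was 0.11 over the members and -0.74 over all accessions, so the typical accession took a smaller part of the P28 library than of the P1 library. By contrast, 4 of the 7 members took a larger part, and the share of all accessions that did so was not counted.

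At P28 against P7, 0 of 7 members were past 2-fold, beside 2.87% of accessions higher and 42.7% lower. miR-30d-5p and miR-30e-5p lay at opposite ends of the family. The log2 ratio was -0.64 for miR-30d-5p (-0.65 to -0.62), the largest difference of any member in any comparison by library totals. With TMM it was 0.007 and with DESeq2 size factors 0.0897, in each case the smallest of the 7 members. By library totals it was 0.42 for miR-30e-5p (0.40 to 0.44). miR-30a-5p had -0.17 (-0.19 to -0.16) and miR-30e-3p had -0.17 (-0.32 to -0.02). miR-30c-5p had 0.05 (0.01 to 0.08), and the intervals of miR-30b-5p, at 0.06 (-0.05 to 0.17), and miR-30a-3p, at -0.09 (-0.27 to 0.09), included 0. The median was -0.09 over the members and -0.79 over all accessions.

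The directions in the comparisons with P28 depended on how the libraries were scaled. TMM scaling moved the median of all accessions by 0.65 when P28 was compared with P1 and by 0.64 when it was compared with P7. With that scaling, all 7 members were above 0 in both comparisons, and the share of all accessions above 0 was not counted. The median was 0.75 and 0.55 over the members, beside -0.09 and -0.14 over all accessions. Then 1 member passed 2-fold higher in each, namely miR-30b-5p at P28 against P1, with a log2 ratio of 1.08, and miR-30e-5p at P28 against P7, with 1.06. The same scaling put 25.1% of all accessions past 2-fold higher and 28.7% lower in P28 over P1. In P28 over P7 it put 11.5% higher and 21.9% lower. At P7 against P1 it moved the median by 0.005, and no member changed direction. A total without the 10 most abundant accessions moved that median by 0.13, turned miR-30e-3p above 0 and put 15.4% of accessions higher and 8.60% lower. It put 21.1% higher and 31.2% lower in P28 over P1, and 6.09% higher and 31.9% lower in P28 over P7. The summed family was thus nearly level between P1 and P28 by library totals and higher at P28 relative to the typical accession, and a level per cell was not measured.

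**Figure D2:**
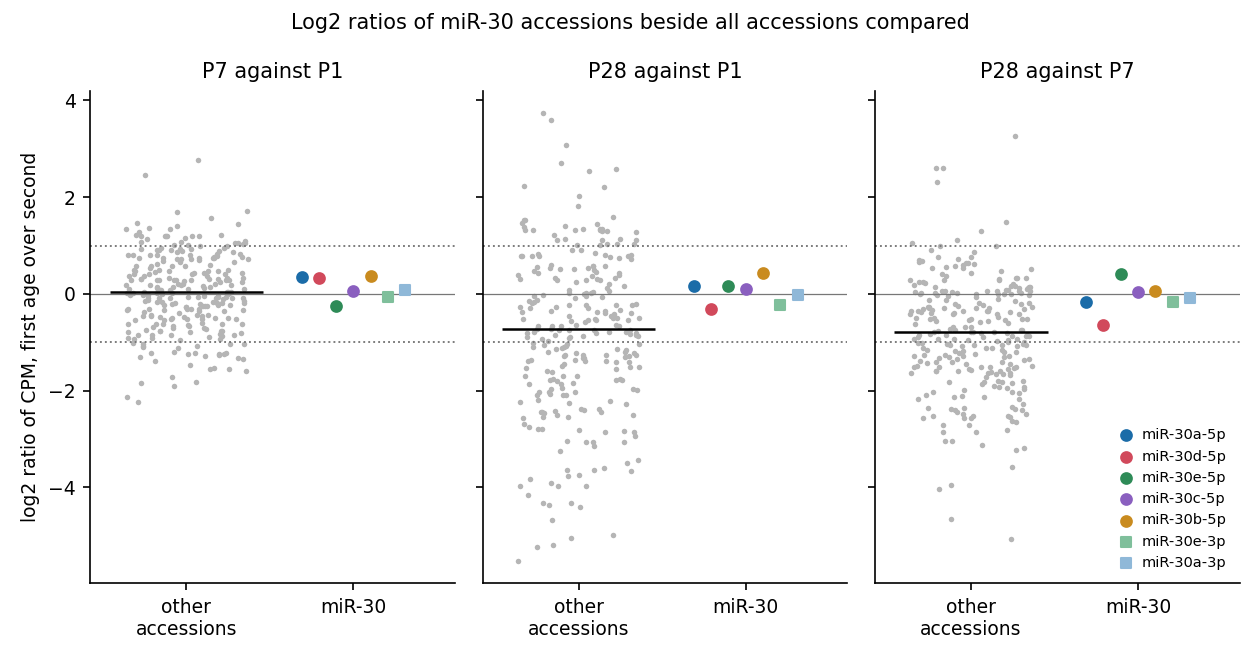
Log2 ratio of CPM for the 3 comparisons of ages, with the first age named over the second; grey points are the other mature accessions whose mean reached 10 CPM, the black line is the median of all 279, colours mark the miR-30 members, and dotted lines mark 2-fold. All 7 members lie between the dotted lines in each panel, while the black line is at -0.74 and -0.79 in the panels with P28.

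By library totals, the members varied less over the 3 libraries than most accessions did. The highest CPM over the lowest was 1.06 for miR-30a-3p, 1.08 for miR-30c-5p, 1.17 for miR-30e-3p, 1.27 for miR-30a-5p and 1.34 for miR-30e-5p. It was 1.35 for miR-30b-5p and 1.56 for miR-30d-5p. The median was 1.27 over the members and 2.51 over all 279 accessions, of which 33.7% stayed under 2-fold. Abundance goes with this measure, since 52.8% of the 53 accessions whose mean reached 1000 CPM stayed under 2-fold, against 25.5% of the 145 with a mean of 10 to 100 CPM. Members were found in the classes from 100 to 1000 CPM and above 1000 CPM. The median over all accessions of these classes was 2.46 and 1.93 in turn. In the class from 100 to 1000 CPM, 35.8% of 81 accessions stayed under 2-fold. By library totals miR-30d-5p was the most variable member, and 17.6% of accessions had a smaller range. This order turned with the scaling, which was examined after the data were seen. With TMM, miR-30d-5p had the smallest range of the members, at 1.26, and miR-30b-5p the largest, at 2.12, followed by miR-30e-5p at 2.09. The median was then 1.69 over the members and 2.30 over all accessions, and 5 of 7 members stayed under 2-fold, beside 39.1% of all accessions.

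Because a common scaling cancels within a library, the makeup of the family was examined next. miR-30d-5p provided 35.3% of the 5p reads (35.0 to 35.5), 39.1% (38.9 to 39.3) and 28.2% (28.0 to 28.4). miR-30a-5p provided 30.4% (30.2 to 30.7), 34.1% (33.9 to 34.3) and 33.9% (33.7 to 34.1). miR-30e-5p provided 27.1% (26.9 to 27.3), 20.1% (19.9 to 20.2) and 30.1% (29.9 to 30.3). The P7 library was therefore poorest in miR-30e-5p, and the P28 library poorest in miR-30d-5p. The share of miR-30c-5p was 6.74%, 6.21% and 7.19%. That of miR-30b-5p was 0.443%, 0.506% and 0.592%.

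**Figure D3:**
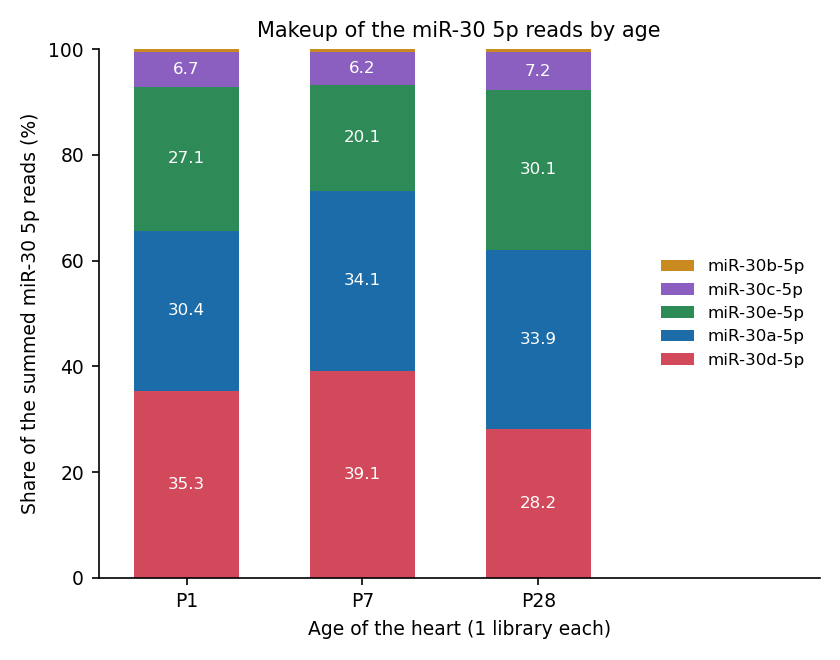
Share of the summed miR-30 5p reads (%) provided by each member at P1, P7 and P28, with 1 library per age and stacked bars that start at 0; the top band, too thin for a printed value, is miR-30b-5p. The share of miR-30e-5p is 20.1% at P7 and at least 27.1% at the other ages, and that of miR-30d-5p is 28.2% at P28 and at least 35.3% at the younger ages.

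Ratios between members gave the same picture without reference to the library total. There were 0.891 reads of miR-30e-5p per read of miR-30a-5p (0.879 to 0.902), 0.588 (0.581 to 0.595) and 0.888 (0.879 to 0.897). The ratio differed between P1 and P28 by less than counting error, with a log2 change of -0.005 (-0.03 to 0.02), and it was lower at P7, with a change of -0.60 from P1 (-0.62 to -0.57). For miR-30d-5p per read of miR-30a-5p, P1 and P7 were alike instead, at 1.16 (1.14 to 1.17) and 1.15 (1.14 to 1.16). At P28 this ratio was 0.832 (0.823 to 0.840), a log2 change of -0.46 from P7 (-0.48 to -0.44). Between miR-30e-5p and miR-30d-5p the ratio went from 0.513 at P7 (0.507 to 0.519) to 1.07 at P28 (1.06 to 1.08), a log2 change of 1.06 (1.04 to 1.08) and the only one of the 30 changes computed between members or arms that passed 2-fold.

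The less abundant 5p members were set against the others in the same manner. Per read of miR-30d-5p there were 0.0126 reads of miR-30b-5p (0.0117 to 0.0135), 0.0129 (0.0122 to 0.0137) and 0.0210 (0.0199 to 0.0221). The log2 change was 0.04 at P7 against P1 (-0.09 to 0.18) and 0.70 at P28 against P7 (0.59 to 0.81). For miR-30c-5p, which derives from both pairs of hairpins described above, there were 0.221, 0.182 and 0.212 reads per read of miR-30a-5p. Per read of miR-30e-5p there were 0.249, 0.309 and 0.239. The P7 library stood apart in opposite directions in these 2 ratios.

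The arms of a hairpin were then set against each other. miR-30a had 137 reads of its 5p arm per read of its 3p arm (123 to 152), 165 (151 to 180) and 155 (143 to 169). The log2 change was 0.27 at P7 against P1 (0.07 to 0.46), whereas P28 differed from neither P1, at 0.18 (-0.01 to 0.37), nor P7, at -0.08 (-0.26 to 0.09), beyond counting error. miR-30e had 73.9 reads of its 5p arm per read of its 3p arm (68.2 to 80.2), 64.4 (59.9 to 69.3) and 97.1 (90.4 to 104). Its log2 change was -0.20 at P7 against P1 (-0.35 to -0.04) and 0.59 at P28 against P7 (0.45 to 0.74). The 5p arm was accordingly less dominant for miR-30e than for miR-30a in every library, and the lower level of miR-30e-5p at P7 had no counterpart of like size in miR-30e-3p. Per read of miR-30a-3p there were 1.65 reads of miR-30e-3p at P1 and 1.42 at P28, and the intervals of all its changes included 0. The values for miR-30e-3p carry the overlap with an opposite-strand annotation described above.

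The second row of miR-30c-5p, like miR-30e-5p, was lowest at P7. The first row held 7750, 12356 and 12299 reads, and the second held 3424, 2406 and 5272. The second row thus took 30.6% of the reads (29.8 to 31.5), 16.3% (15.7 to 16.9) and 30.004% (29.3 to 30.7). Its log2 ratio was -0.85 at P7 against P1 (-0.93 to -0.78) and 0.93 at P28 against P7 (0.86 to 1.00). The first row had 0.33 (0.29 to 0.37) and -0.21 (-0.25 to -0.18) in these comparisons, and the summed accession had 0.06 and 0.05. Which row stands for Mir30c-1 and which for Mir30c-2 is not stated. How reads of a sequence present at 2 loci were divided between rows is not stated, and a link between this split and the P7 level of miR-30e-5p was not tested.

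**Figure D4:**
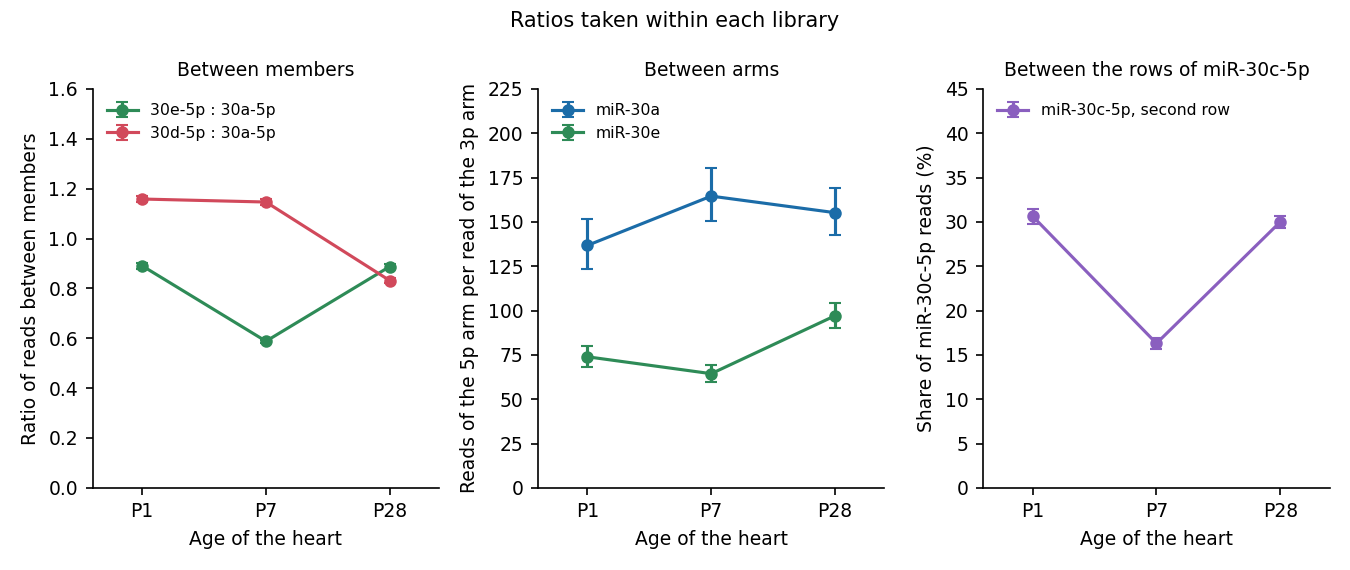
Ratios taken within each library, by age of the heart, with bars for 95% intervals of counting error: reads of miR-30e-5p or miR-30d-5p per read of miR-30a-5p (left), reads of the 5p arm per read of the 3p arm for miR-30a and miR-30e (middle), and the share of miR-30c-5p reads in its second row (right). The P7 library has the lowest values for miR-30e-5p on the left (0.588), for miR-30e in the middle (64.4) and for the second row on the right (16.3%), whereas miR-30d-5p departs at P28 (0.832).

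Finally, accessions were ranked by how closely they followed the summed 5p members. The measure was the distance between the log2 ratios of the 2 successive steps, P7 against P1 and P28 against P7, over the 3 libraries and the 126 other accessions whose mean reached 100 CPM. The nearest was MIMAT0000162, at a distance of 0.17, with 1712 CPM, 1827 CPM and 1468 CPM. Next was MIMAT0000230, at 0.28, with 2598 CPM, 2684 CPM and 2015 CPM. Both were highest at P7 and lowest at P28. The other 3 of the nearest 5 were at distances of 0.30 to 0.32. Measured in the same way, miR-30a-3p was 0.13 and miR-30a-5p 0.16 from the sum, nearer than any of these accessions. At 0.236 for miR-30e-3p and 0.243 for miR-30c-5p, 1 accession was nearer, and at 0.298 for miR-30b-5p, 2 were nearer. By contrast, miR-30d-5p was at 0.49, with 13 accessions nearer, and miR-30e-5p at 0.73, with 33 nearer. With 3 libraries such likeness is a description, and the sum is itself made largely of miR-30a-5p, miR-30d-5p and miR-30e-5p.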

How the data were processed

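Small RNA libraries were prepared with a NEBNext kit, and the deposited table holds raw read counts per miRBase accession, made by the authors with no normalization. The submitters' processing notes name bcl2fastq, TopHat and mm10, without versions. The miRBase release, use of strand and handling of reads with several matching places are not given in the sources used here. Columns were matched to ages by the age code that opens their names.

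Rows were summed per accession and divided by the library total, which includes 14 stem-loop rows (4.04% to 6.72% of counts). A floor of 3 reads corresponds to 1.54 CPM (P1), 1.22 CPM (P7) and 1.06 CPM (P28). The members and lists were chosen with earlier results of these data known. Names of the 7 members came with the accessions. Planned marker lists, the other 3p arms, miR-384-5p and the let-7 and miR-26 families were not analysed, because the table pairs accessions with no names. With 1 library per age, edgeR's quasi-likelihood fit was not possible, and differences are log2 ratios with Clopper-Pearson intervals, or normal-approximation intervals on the log odds for changes of a ratio, at 95%. Intervals cover counting error only. They take reads as independent, which reads from amplified copies are not, so they may be too narrow. A 2-fold difference was the threshold for calls. The steps were run on simulated counts with counting error alone, which cannot show how calls fare under spread between hearts. The simulation altered only accessions less abundant than miR-30a-5p, miR-30d-5p and miR-30e-5p. All members were named, and the 5 nearest accessions were selected by distance, of which 2 are printed.

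Alternatives were TMM (edgeR 4.0.16), DESeq2 1.42.0 size factors, other totals, a pseudocount of 5 reads, other folds and filters, and edgeR's exact test. The exact test used library totals and an assumed variation between hearts of 0.2 or 0.4. Computation was in Python 3.11.15 (scipy 1.17.1, numpy 2.4.6, pandas 2.3.3) and in R 4.3.3. Sequences came from RefSeq (GRCm38.p6) and gene positions from GENCODE M21.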

Additional observations from a re-analysis of the deposited data

How the results depend on the processing

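Values for the summed 5p members are log2 ratios in the order P7 against P1, P28 against P1 and P28 against P7, where the library total gave 0.18, 0.01 and -0.17. With TMM, the comparisons with P28 gave 0.66 and 0.48. Scaling by DESeq2 size factors changed the values to 0.14, 0.70 and 0.56. The total without the 10 most abundant accessions, which probably include miR-30a-5p, miR-30d-5p and miR-30e-5p, gave 0.31, 0.49 and 0.18. The total of mature rows gave 0.15, -0.0289 and -0.18, and keeping 1 accession of those with matching counts gave 0.19, 0.00284 and -0.19. Without miR-30a-5p the first 2 were 0.10 and -0.0619, without miR-30d-5p the 3 were 0.0895, 0.16 and 0.0720, and without miR-30e-5p they were 0.31, -0.0485 and -0.36. Without miR-30c-5p the third was -0.18. The direction at P28 against P7 therefore turned with scaling and with miR-30d-5p, and that at P28 against P1, which is near 0, turned with several choices. Both arms together, a pseudocount of 5 reads and the sum without miR-30b-5p left all 3 within counting error.

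The number of members past 2-fold was 0 in every comparison by library totals. With TMM, and again with DESeq2 size factors, it became 1 higher in P28 over P1 (miR-30b-5p) and 1 higher in P28 over P7 (miR-30e-5p). It became 1 lower (miR-30d-5p) at P28 against P7 with a fold of 1.5, beside 55.6% of all accessions lower and 7.89% higher at that fold. Under DESeq2 size factors, 25.8% of all accessions were higher and 28.7% lower in P28 over P1, and 14.0% higher and 20.4% lower in P28 over P7. In the edgeR exact test, 0 of 21 member comparisons had an adjusted p under 0.05 or an unadjusted p under 0.05 at an assumed variation of 0.2, and likewise at 0.4. The smallest adjusted p was 0.211 and 0.735 in turn, both for miR-30d-5p at P28 against P7. Of the 279 accessions, an adjusted p under 0.05 together with 2-fold was reached at 0.2 by 16 higher and 17 lower in P7 over P1, 33 and 112 in P28 over P1, and 8 and 106 in P28 over P7. At 0.4 these were 0 and 0, 6 and 49, and 1 and 10.

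Signs of single members changed under TMM for 3 of 7 in P28 over P1 and 4 of 7 in P28 over P7. Under DESeq2 size factors they changed for as many. The share of all accessions that changed sign was not counted. Under DESeq2 size factors, added after the data were seen, the range over ages was 1.30 for miR-30d-5p, the smallest of the members, and 2.21 for miR-30e-5p, the largest. With the total without the 10 most abundant accessions it was smallest for miR-30e-3p (1.19) and largest for miR-30b-5p (1.88). The 5p to 3p ratios moved by less than counting error with a pseudocount of 5 reads. No paired analysis was possible because the ages have 1 library each, and leaving out a replicate was not possible for the same reason. No accession of miR-30a or miR-30e has several rows, so the largest row was not tried for the arms.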
